A study of Mus musculus with 2 samples.

Results

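Imprinted genes are genes of which the copy from the mother or the copy from the father is silenced in at least some tissues. Here 34 of them were followed in adult mouse liver, chosen by symbol, and each symbol matched 1 of the 43346 mouse gene identifiers in the deposited gene tables. They fall into 14 chromosomal domains or solitary genes. Livers of C57BL/6J mice, 8 weeks old, gave the total RNA, selected for a length above 200 nucleotides, for 2 libraries, which the labels number as biological replicates 1 and 2. No treatment, genotype or second age was labelled, so both libraries form 1 group and no test between groups was possible. The labels give each library its own biosample but the same donor identifier, so whether the libraries come from separate animals is unclear. A difference between the libraries can therefore not be read as a difference between animals. The sex of the animals is given as not collected. C57BL/6J is an inbred strain, in which the copies from mother and father have the same sequence, so the level of each gene is the sum over both copies.

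Imprinted genes lie in clusters, each governed by a control region whose DNA methylation is set in the egg or the sperm. Many act on growth before birth: paternally expressed genes such as Igf2 tend to promote it and maternally expressed ones such as Cdkn1c, Grb10 and Igf2r tend to restrain it. A network of these growth genes is known to be switched down in liver and other organs after birth, while others, such as Gnas and Igf2r, stay in use in adult cells. Only adult liver was measured here, so the tables show which genes were on at 8 weeks and hold no fetal level to set beside them.

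Endogenous genes held 83816487 expected counts in replicate 1 and 71068191 in replicate 2. An expected count is the number of sequenced fragments assigned to a gene. Levels are given as TPM, which is corrected for transcript length, rescaled here so that all protein-coding genes together make 1000000. The biological coefficient of variation, the spread between the libraries after counting noise, was 0.238 over 14703 genes. All 8 hepatocyte markers were present, with summed levels of 89086 and 101055 TPM. Markers of other organs differed between the libraries. The 10 adrenal cortex markers summed to 58.7 TPM in replicate 1 and 155 TPM in replicate 2, with Nr5a1 at 0 and 60 counts. Mrap, almost equal in the libraries at 1546 and 1483 counts, made up 51.5 and 57.0 TPM of these sums. Star of the same list had 48 and 2021 counts. The 6 adrenal medulla markers had 5 and 287 counts in all. The 11 pancreatic acinar markers summed to 1487 and 302 TPM, the 8 skeletal muscle markers to 55.0 and 1.54 TPM, and 3 of 5 pancreatic islet markers had no count in either library.

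Of the 34 imprinted genes, 20 reached 1 TPM in both libraries, 3 in only 1 library and 11 in neither. For comparison, 27.5% of all genes and 51.0% of protein-coding genes reached 1 TPM in both. Together the 34 genes held 0.0445% ± 0.00556 of protein-coding-scaled TPM (SD, n = 2), and Gnas alone made up 44.9% ± 0.731 of their sum. Gnas, Slc22a18, Ube3a, Copg2, Igf2r and Blcap were the 6 genes at 10 TPM or more in both libraries, a level that 27.4% of protein-coding genes reached. At the other end, Dlk1, Rtl1 and Magel2 had no count in either library, and Usp29 had 0 and 1. The deposited TPM has steps of 0.01, equal to 0.0823 and 0.0614 TPM on the scale used here, so the expected counts are the finer measure for genes under 1 TPM. Intervals quoted below for counts cover counting error only.

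**Figure D1:**
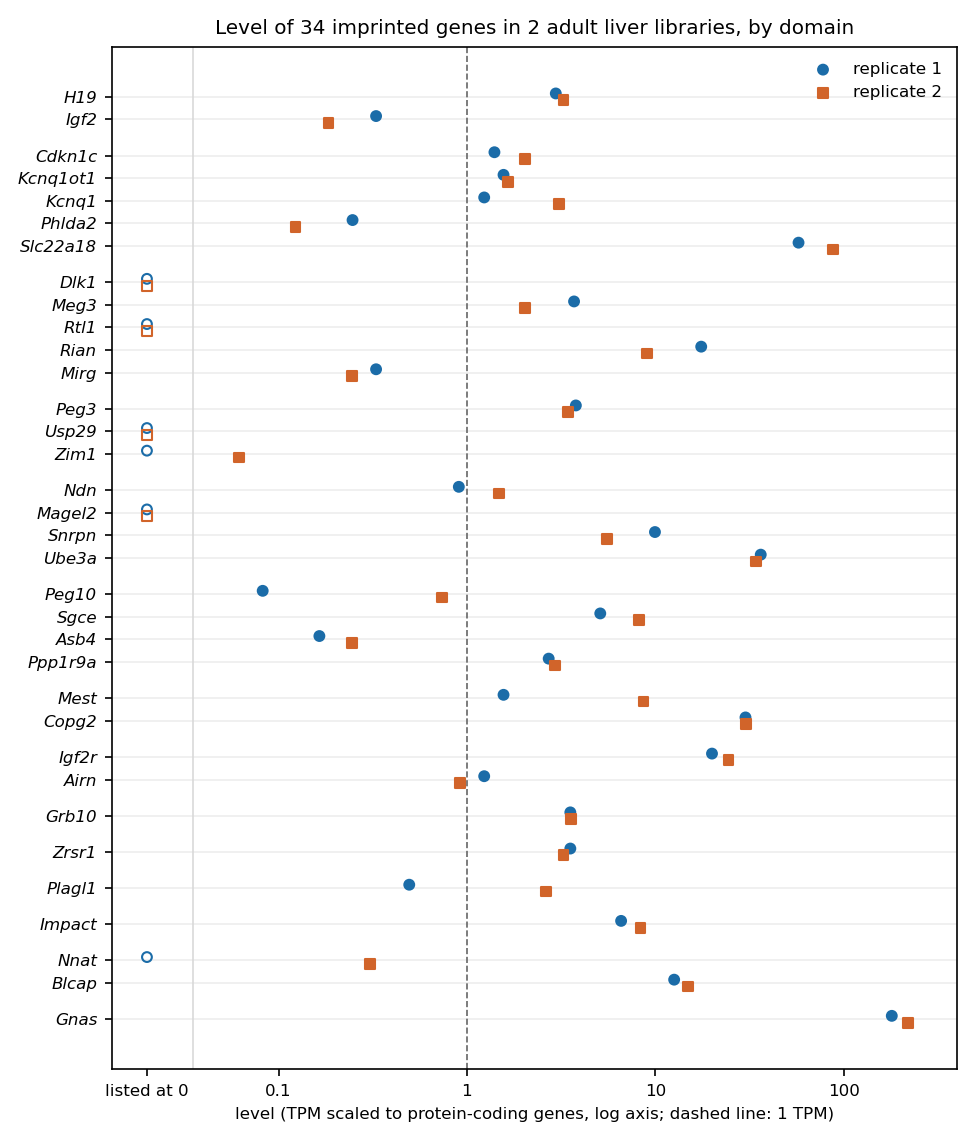
Level of each of the 34 imprinted genes in replicate 1 (circles) and replicate 2 (squares), grouped by chromosomal domain, on a log axis of TPM scaled to protein-coding genes. Open symbols are genes listed at 0 and the dashed line marks 1 TPM; Gnas stands highest at 180 and 220 TPM, and Dlk1, Rtl1 and Magel2 are listed at 0 in both libraries.

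Of the 20 genes at 1 TPM or more in both libraries, 11 belong to the class listed as widely expressed and 9 do not. All 11 listed genes reached 1 TPM in both, Kcnq1 only through 1 count of a short transcript in replicate 1, and 10 did without that transcript. The class had a median of 12.6 TPM in replicate 1 and 14.99 in replicate 2, close to the median of 12.7 TPM of protein-coding genes that reached 1 TPM. Gnas (ENSMUSG00000027523, chromosome 2, 174284320 to 174346744 in mm10) encodes the alpha subunit of the stimulatory G protein, which links receptors such as that for glucagon to cyclic AMP. It had 10425 and 10940 expected counts, or 200.2 ± 28.2 TPM (SD, n = 2), above 93.9% of the 10960 protein-coding genes that reached 1 TPM in both libraries.

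Gnas has several alternative starts with different imprinting, and nearly all of its liver signal came from the furthest downstream of the main ones. Transcripts that start between 174330006 and 174330287, the start known for the stimulatory alpha subunit, held 98.8% ± 0.687 of Gnas TPM (SD, n = 2), from 10382 and 10838 counts. Transcripts from the most upstream start, known for the maternally expressed Nesp55 form, had 10.2 and 14.9 counts. The 7 transcripts of the next main start at 174297859, known for the paternally expressed extra-large form, were listed at 0 counts in both libraries. The starts between 174327570 and 174328023, known for exon 1A, had 8.01 counts in replicate 1 and 39.5 in replicate 2. Reads in exons shared by these forms are divided among them by the quantification, so small values for single forms are estimates.

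Slc22a18 (ENSMUSG00000000154, chromosome 7, 143473736 to 143499334), which encodes a transporter of the organic cation family, was the second highest member. It had 2750 and 3638 counts, or 57.6 and 88.1 TPM, and lay above 86.1% of the detected protein-coding genes. The 2 highest genes had very different promoters. The 250 bases before a RefSeq start of each are shown with every CG pair, the site of DNA methylation in mammals, in capitals (RefSeq, GRCm38.p6).
Gnas, chr2:174329756-174330005, plus strand: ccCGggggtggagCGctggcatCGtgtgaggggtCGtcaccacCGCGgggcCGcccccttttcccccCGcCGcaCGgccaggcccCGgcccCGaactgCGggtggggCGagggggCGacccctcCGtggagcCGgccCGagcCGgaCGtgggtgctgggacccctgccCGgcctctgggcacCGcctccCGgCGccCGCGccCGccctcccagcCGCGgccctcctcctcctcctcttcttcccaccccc
Slc22a18, chr7:143473539-143473788, plus strand: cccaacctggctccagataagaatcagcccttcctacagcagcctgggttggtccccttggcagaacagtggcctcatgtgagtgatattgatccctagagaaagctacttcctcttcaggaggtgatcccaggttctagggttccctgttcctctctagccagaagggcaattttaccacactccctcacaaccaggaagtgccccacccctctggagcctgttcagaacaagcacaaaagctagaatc
The RefSeq start of Slc22a18 lies inside the highest GENCODE transcript, so the last 53 bases of its stretch lie past the start of that transcript. The Gnas stretch held 29 CG pairs and 80.0% G or C, whereas the Slc22a18 stretch held 0 CG pairs and 52.8% G or C. Over the 300-base windows of all 32851 RefSeq promoters in the table, the median was 7 CG pairs, and over the 42 windows of the 27 imprinted genes that matched it was 12. No sequence was matched for H19, Cdkn1c, Kcnq1, Rtl1, Peg10, Sgce and Impact.

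Ube3a, Copg2, Igf2r and Blcap followed, each within a narrow range between the libraries. Ube3a, a ubiquitin ligase that is imprinted in neurons, had 36.3 and 34.3 TPM from 6818 and 5531 counts. Copg2, a subunit of the coatomer that coats Golgi vesicles, had 30.1 and 30.4 TPM. Igf2r, the receptor that carries IGF2 and lysosomal enzymes to lysosomes, had 6286 and 6928 counts, or 20.01 and 24.5 TPM. Blcap, a small membrane protein gene that surrounds Nnat, had 12.6 and 14.99 TPM. These values place Igf2r above 65.2% and Blcap above 52.2% of detected protein-coding genes.

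The other widely expressed members were lower. Impact, an inhibitor of the amino acid sensing kinase GCN2, had 6.59 and 8.35 TPM. Sgce, which encodes epsilon-sarcoglycan, had 5.10 and 8.23 TPM, and Zrsr1, a retrogene related to a splicing factor, 3.54 and 3.26 TPM. Snrpn, which encodes the spliceosomal protein SmN, had 661 counts in replicate 1 and 316 in replicate 2, or 9.96 and 5.53 TPM. Kcnq1, a potassium channel subunit, stood at 1.24 and 3.07 TPM from 91 and 95 counts, so its counts were nearly equal while its TPM was not.

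Among the 15 fetal growth genes, 7 reached 1 TPM in both libraries, 2 in only 1 and 6 in neither. In both libraries 51.0% of protein-coding genes and 27.5% of all genes reached that level. The median of the growth genes was 0.906 TPM in replicate 1 and 2.03 in replicate 2. That of the widely expressed genes was 12.6 and 14.99 TPM. No test was run on this contrast, since the lists were drawn up from what is known of these genes. Earlier results of these data were also known when the lists were chosen, so the contrast is descriptive only.

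**Figure D2:**
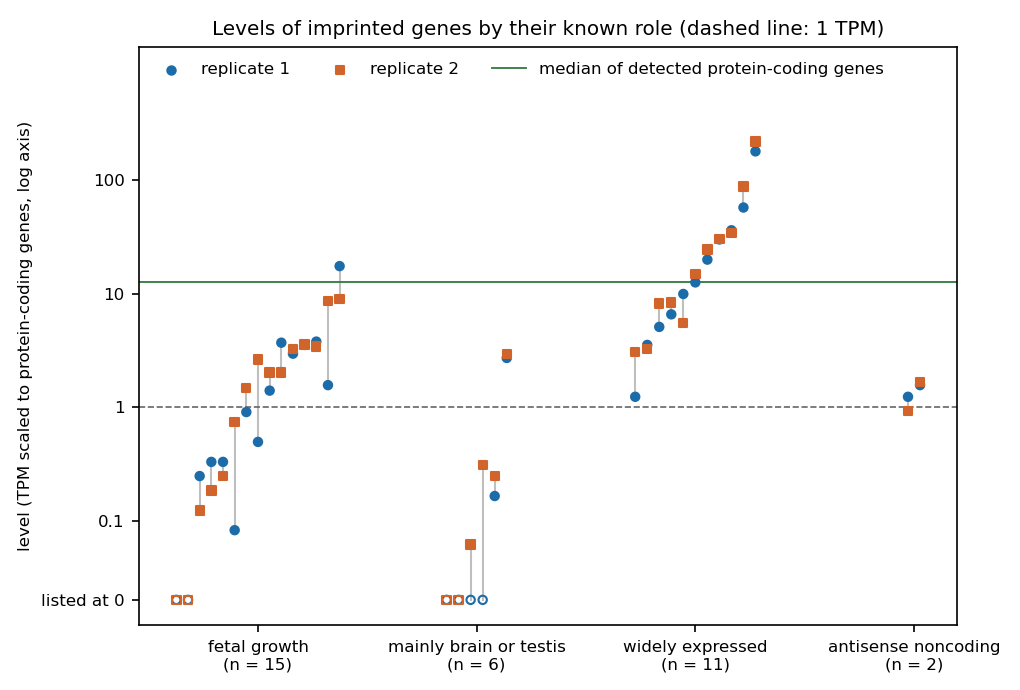
Levels of the 34 imprinted genes in 4 classes by known role, with replicate 1 as circles, replicate 2 as squares and a grey line joining the values of 1 gene, on a log axis of TPM scaled to protein-coding genes. All 11 widely expressed genes lie above the dashed line at 1 TPM in both libraries, Kcnq1 through 1 count of a short transcript in replicate 1, as do 7 of the 15 fetal growth genes and 1 of the 6 genes known mainly from brain or testis; the green line is the median of detected protein-coding genes, 12.7 TPM.

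In the Igf2-H19 domain of chromosome 7, the maternally expressed noncoding RNA was the more abundant of the pair. H19 (142575529 to 142578143) had 175 and 123 counts, or 2.96 and 3.26 TPM. Igf2, the fetal growth factor, had 14 and 12 counts, or 0.329 and 0.184 TPM. Igf1, the growth factor that liver secretes after birth, stood at 226 and 224 TPM on the same scale.

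The Dlk1-Meg3 domain of chromosome 12 was split between noncoding and protein-coding members. The 3 noncoding RNAs, known as maternally expressed, had counts in both libraries. Rian, a host of small nucleolar RNAs, had 669 and 279 counts, or 17.5 and 9.03 TPM. Meg3 had 259 and 109 counts, or 3.70 and 2.03 TPM. Mirg, a host of microRNAs, had 23 and 21 counts, or 0.329 and 0.246 TPM, and so stayed under 1 TPM in both libraries. The paternally expressed genes of the domain, Dlk1, which encodes a Notch-related surface protein, and Rtl1, a retrotransposon-derived gene of the placenta, had 0 counts in both libraries. A count of 0 allows up to 3 counts, which for Dlk1 is 0.0434 TPM in replicate 1 and 0.0504 in replicate 2, so at this depth Dlk1 lay below the level of Meg3 in each library. The 17 annotated microRNA and small nucleolar RNA genes inside Rian and the 14 microRNA genes inside Mirg also had 0 counts; their median lengths of 73 and 80.5 nucleotides lie below the size limit of 200 nucleotides of the RNA, so these libraries do not measure them.
The promoters of Dlk1 and Meg3 are shown in the same way, since Dlk1 was not detected and Meg3 was.
Dlk1, chr12:109452573-109452822, plus strand: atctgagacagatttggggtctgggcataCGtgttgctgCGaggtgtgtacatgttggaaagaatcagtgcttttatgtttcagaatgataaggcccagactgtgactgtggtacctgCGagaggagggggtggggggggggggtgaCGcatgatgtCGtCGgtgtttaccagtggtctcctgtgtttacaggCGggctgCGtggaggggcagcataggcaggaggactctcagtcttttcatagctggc
Meg3, chr12:109540746-109540995, plus strand: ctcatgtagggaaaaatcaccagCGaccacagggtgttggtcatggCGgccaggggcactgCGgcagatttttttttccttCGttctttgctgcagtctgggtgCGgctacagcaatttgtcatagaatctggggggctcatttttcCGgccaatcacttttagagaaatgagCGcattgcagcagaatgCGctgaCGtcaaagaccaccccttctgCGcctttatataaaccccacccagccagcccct
They hold 8 and 10 CG pairs and 54.8% and 52.4% G or C. Of the pair, only the Meg3 stretch holds the hexamer TGCCGC, a motif of the factor ZFP57, as its complement GCGGCA. Promoter windows of Nnat, Zim1 and Igf2, all under 1 TPM, also held it. So did windows of Copg2, Snrpn, Grb10 and Mest, above 1 TPM in both libraries, and of Plagl1, which reached it in only 1. The hexamer was found in 11.6% of the windows of all genes, and a link between this motif and the level was not tested.

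In the Kcnq1 domain of chromosome 7, Cdkn1c, which encodes the cell cycle inhibitor p57, had 89 and 113 counts, or 1.40 and 2.03 TPM. Phlda2, a gene that restrains placental growth, had 5 and 2 counts. This domain thus held both the second highest of the 34 genes, Slc22a18, and genes near or below 1 TPM.

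Peg3, a zinc finger gene of chromosome 7, had 1021 and 762 counts, or 3.79 and 3.44 TPM. Its divergent neighbour Usp29, a ubiquitin protease gene, had 0 and 1 counts, and Zim1, a zinc finger gene on the other side, 2 and 10. RefSeq places the starts of Peg3 and Usp29 on either side of a stretch of 163 bases, shown here on the plus strand because both genes share it.
Peg3-Usp29, chr7:6730420-6730582, plus strand: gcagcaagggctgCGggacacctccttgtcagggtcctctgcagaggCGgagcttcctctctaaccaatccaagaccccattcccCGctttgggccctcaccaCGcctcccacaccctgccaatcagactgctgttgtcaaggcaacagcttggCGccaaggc
It held 5 CG pairs and 62.0% G or C. The annotated Usp29 transcript in the deposited tables starts 230.7 kb away from Peg3, at 6961160, so the value of Usp29 does not cover first exons at this shared promoter.

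Grb10, an adaptor that restrains insulin and IGF1 receptor signalling, was almost equal in the libraries, at 3.54 and 3.56 TPM from 602 and 523 counts. Its liver transcripts came mainly from a pair of starts. The upstream start at 12037401 on chromosome 11 held 57.7% ± 2.71 of Grb10 TPM (SD, n = 2) from 370 and 337 counts. The downstream start at 12027971 held 28.9% ± 1.36 from 168 and 154 counts. The start at 11956024, of a transcript annotated as non-coding, held 10.5% ± 4.90.
Both main promoters are shown because their base composition differs.
Grb10 upstream, chr11:12037421-12037670, minus strand: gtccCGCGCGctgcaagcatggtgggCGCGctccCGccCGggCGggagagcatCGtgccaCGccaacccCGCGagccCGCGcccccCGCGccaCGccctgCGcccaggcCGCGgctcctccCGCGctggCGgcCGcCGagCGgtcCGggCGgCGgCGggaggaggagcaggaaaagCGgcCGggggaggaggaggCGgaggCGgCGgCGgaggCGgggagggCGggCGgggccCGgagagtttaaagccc
Grb10 downstream, chr11:12027972-12028221, minus strand: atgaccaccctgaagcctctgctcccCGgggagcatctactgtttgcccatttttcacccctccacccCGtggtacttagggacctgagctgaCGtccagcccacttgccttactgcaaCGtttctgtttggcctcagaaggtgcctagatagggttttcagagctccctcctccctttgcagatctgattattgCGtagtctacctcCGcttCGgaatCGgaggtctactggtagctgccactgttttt
The upstream stretch held 40 CG pairs and 81.2% G or C, and the downstream stretch 8 CG pairs and 54.0% G or C.

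The remaining growth genes were higher in replicate 2. Mest, which encodes a hydrolase, had 132 and 269 counts, or 1.56 and 8.66 TPM. Plagl1, a zinc finger factor known as a regulator of other imprinted genes, had 67 and 127 counts, or 0.494 and 2.64 TPM. Peg10, a retrotransposon-derived placental gene, had 14 and 129 counts, or 0.0823 and 0.737 TPM. Ndn, a MAGE family gene, had 48 and 71 counts, or 0.906 and 1.47 TPM. In both libraries nearly all Mest counts, 98.8% and 98.4%, belonged to transcripts that start between 30738050 and 30738055 on chromosome 6, and those from the start at 30733454 to 30733506 were at 0.
The stretch before the active Mest start is shown because it holds the hexamer TGCCGC, the motif bound by the imprint-protecting factor ZFP57 when methylated.
Mest, chr6:30737800-30738049, plus strand: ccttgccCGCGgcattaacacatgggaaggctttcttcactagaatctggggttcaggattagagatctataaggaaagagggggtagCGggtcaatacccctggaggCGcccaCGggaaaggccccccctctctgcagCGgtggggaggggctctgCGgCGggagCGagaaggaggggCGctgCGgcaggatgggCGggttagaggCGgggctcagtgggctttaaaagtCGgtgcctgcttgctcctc
TGCCGC or its complement GCGGCA occurred 2 times in these 250 bases. Searched on both strands of the 300-base windows, it was found in 10 of the 42 windows of imprinted genes, which belong to 9 of the 27 genes since a pair of Mest windows overlap, and in 11.6% of the windows of all genes. The windows of imprinted genes also held more CG pairs, with a median of 12 against 7. A match is a string of letters and not a measured binding site.

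Peg10 and Sgce are divergent neighbours on chromosome 6, with 202 bases between the starts of their highest transcripts, and both are known as paternally expressed. Their levels were nevertheless far apart: Sgce had 283 and 400 counts where Peg10 had 14 and 129. Of the other pair of the region, Ppp1r9a, which encodes neurabin, had 2.72 and 2.95 TPM, and Asb4, a member of a ubiquitin ligase adaptor family, 0.165 and 0.246 TPM.

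Of the 6 genes known mainly from brain or testis, only Ppp1r9a reached 1 TPM in both libraries, where 51.0% of protein-coding genes did. Asb4 had 24 and 25 counts, Magel2 had none, Usp29 and Zim1 had at most 10 and Nnat, which encodes the neuronal proteolipid neuronatin, had 0 in replicate 1 and 10 in replicate 2.

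The antisense RNAs show how the gene model sets a level. Kcnq1ot1, the paternally expressed RNA that silences neighbours of Kcnq1, had 5020 and 4569 counts, more than any fetal growth gene, yet only 1.56 and 1.66 TPM. Its model is an unspliced transcript of 84395 nucleotides. Airn, which silences Igf2r on the paternal copy, had 31 and 28 counts but a similar 1.24 and 0.921 TPM, because the spliced models average 883 and 1114 nucleotides while the gene spans 118.8 kb. Reads in the unspliced body of Airn would not be counted by these models. Whether counting used the strand is not given in the sources used here. If it did not, reads in exons that overlap a gene on the other strand cannot be told apart by strand. This concerns Igf2r and Airn, and Kcnq1, whose 91 and 95 counts stand beside 5020 and 4569 of Kcnq1ot1. It also concerns the 0 and 10 counts of Nnat inside Blcap. The expected counts of all these genes were whole numbers with a posterior SD of 0 in both libraries, so the deposited values show no read divided between them.

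The libraries were then compared as log2 ratios of replicate 2 over replicate 1, after TMM scaling, which sets the bulk of genes equal. A mean count of 10 or more was required, and 27 of the 34 genes passed. Of these, 13 were higher in replicate 2 and 14 in replicate 1, with a median ratio of -0.04 against 0.0032 for all 15492 genes that passed. With spike-in scaling 22 were higher in replicate 2 and 5 in replicate 1, and by deposited TPM 21 and 4, so this split depends on the scale. The median size of the ratio, regardless of direction, was 0.23 for the imprinted genes and 0.28 for all genes. Over 2-fold differences were seen in 5 of the 27, where 10% of all genes passed the same line. Ratios of 1 library to 1 library have no replicate check.

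**Figure D3:**
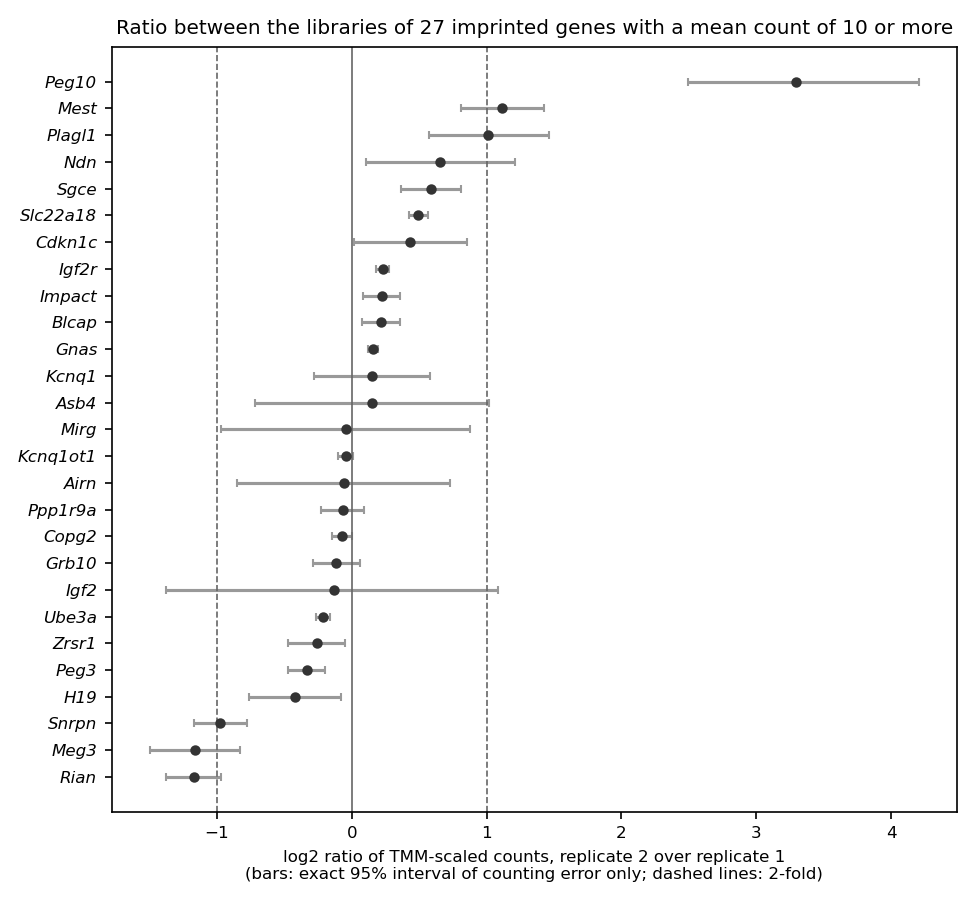
Log2 ratio of replicate 2 over replicate 1 of TMM-scaled counts for the 27 imprinted genes with a mean count of 10 or more; bars are exact 95% intervals of counting error only and dashed lines mark 2-fold. Peg10 stands apart at the top with 14 and 129 counts, and Meg3 and Rian lie lowest.

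The 3 genes over 2-fold higher in replicate 2 were Peg10, Mest and Plagl1, in a direction that 5.49% of all genes took. Peg10 was 9.80-fold higher in replicate 2 (exact 95% counting interval 5.63 to 18.4), Mest 2.17-fold (1.75 to 2.69) and Plagl1 2.02-fold (1.49 to 2.75). Plagl1 sits on the line, at a log2 ratio of 1.00, and DESeq2 size factors put it at 0.99. Markers of the adrenal gland moved with them: Star had 48 and 2021 counts, Cyp11a1 0 and 379, and Chga of the medulla 1 and 89. Mrap of the cortex list was an exception, at 1546 and 1483 counts. The low members Nnat and Zim1, with 0 and 10 and with 2 and 10 counts, also had their counts mainly in replicate 2. In the adrenal cortex list, 4 of 10 markers were at 0 in replicate 1 and none in replicate 2. All 5 B cell markers were higher in replicate 2, by a median of 1.30 on the log2 scale, with summed levels of 14.6 and 69.8 TPM, and so were all 5 erythroid markers, with a median of 0.51 and sums of 1080 and 1602 TPM. Of 8 hepatic stellate cell markers, 7 were higher in replicate 2 and 1 lower, with a median of 0.32 and sums of 217 and 297 TPM. The part of RNA from these cells in the values of Peg10, Mest and Plagl1 was not tested. In bulk RNA, fewer cells of a type and less RNA per cell cannot be told apart.

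The 2 genes over 2-fold higher in replicate 1 were Rian and Meg3, where 4.51% of all genes lay. Rian was 2.25-fold and Meg3 2.23-fold higher in replicate 1, with log2 ratios of -1.17 and -1.15. Their neighbour Mirg had a log2 ratio of -0.04, with a counting interval of replicate 2 over replicate 1 from 0.5111-fold to 1.84-fold. This interval did not hold the 0.443-fold of Rian or the 0.448-fold of Meg3. It lay just above the interval of Rian, 0.384-fold to 0.5107-fold, and overlapped that of Meg3, 0.354-fold to 0.562-fold. All 3 intervals cover counting error only. Snrpn was just inside the line at -0.97, or 1.97-fold higher in replicate 1. Skeletal muscle and pancreatic markers were also higher in replicate 1, with Acta1 at 669 and 1 counts and Cela2a at 6802 and 1798, and so were 4 of 5 cholangiocyte markers, with a median log2 ratio of -0.93 and sums of 5.76 and 4.18 TPM. All 4 mesothelium markers were also higher there, with a median of -1.10 and sums of 2.22 and 1.11 TPM. The part of these cells in the values of Rian, Meg3 and Snrpn was not tested. Neither Rian nor Meg3 was over 2-fold apart with spike-in scaling, at -0.89 and -0.87, or by deposited TPM, at -0.54 and -0.45. Peg10, Mest, Plagl1, Rian, Meg3 and Snrpn kept their direction under each of the other 7 settings that gave them a value. For Peg10, Mest and Plagl1 this adds little, since the settings that moved all genes most moved them upward.

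Small ratios depended on the scaling. H19 had a log2 ratio of -0.42 under TMM and -0.14 with spike-in scaling, and 0.56 by the deposited TPM. Peg3 stood at -0.33, -0.05 and 0.28 in the same order, and Ube3a at -0.21, 0.07 and 0.34. Spike-in scaling moved the median of all genes by 0.28 and the deposited TPM ratio by 0.55, so a direction within this range is relative to the scale chosen. Gnas, Igf2r, Impact, Blcap, Slc22a18, Sgce and Cdkn1c were higher in replicate 2 under each setting that gave them a value. Both of these shifts were upward, and DESeq2 size factors moved the median of all genes by only -0.014. The settings could thus hardly reverse a gene that was higher in replicate 2 under TMM, so this agreement adds little.

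For 3 genes the ratio of TPM and the ratio of counts were over 2-fold apart, in each case with reads assigned to short transcripts. Kcnq1 had a log2 count ratio of 0.15 and a TPM ratio of 1.31. A transcript of 282 nucleotides, Kcnq1-207, took 1 and 5 counts and yet made up 30.6% and 60.7% of Kcnq1 TPM, because its effective length, the length corrected for fragment size, was only 71.2 and 81.0 nucleotides. Without this transcript Kcnq1 stood at 0.906 and 1.17 TPM, under 1 TPM in replicate 1. Mest had a count ratio of 1.11 and a TPM ratio of 2.47; Mest-204, a non-coding transcript of 417 nucleotides, took 0 and 36.8 counts and 59.9% of Mest TPM in replicate 2. Plagl1 had ratios of 1.00 and 2.42, with the 422-nucleotide Plagl1-221 at 0 and 5.73 counts and 30.2% of its TPM in replicate 2. H19 changed sign, at -0.42 by counts and 0.14 by TPM, and a transcript of 817 nucleotides with starting position 142576538 held 15.8% of its TPM in replicate 1 and 53.4% in replicate 2.

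**Figure D4:**
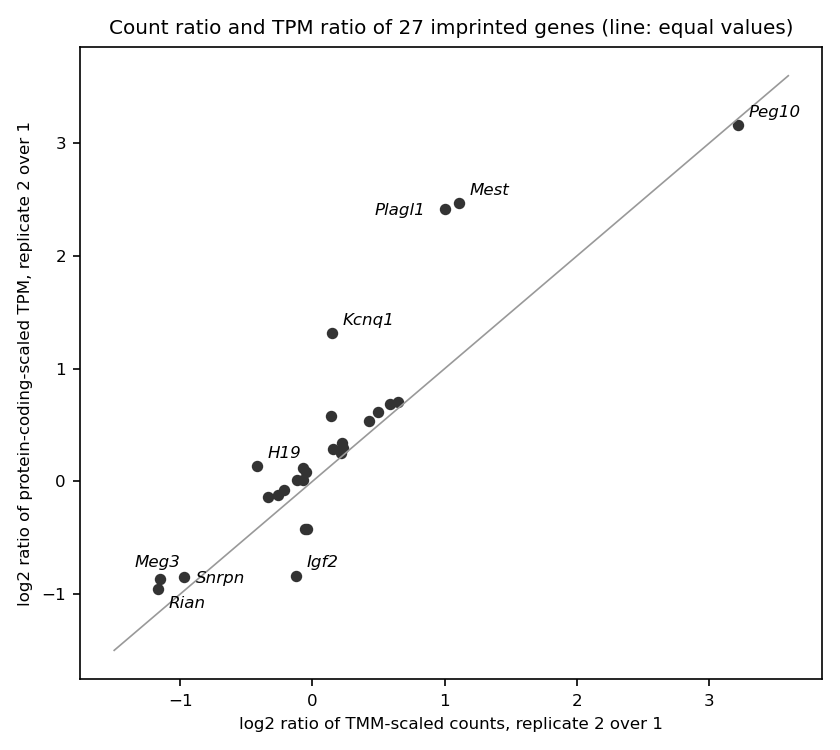
Log2 ratio of replicate 2 over replicate 1 by TMM-scaled counts (x axis) and by TPM scaled to protein-coding genes (y axis) for 27 imprinted genes; the line marks equal values. Mest, Plagl1 and Kcnq1 lie above the line, with TPM ratios of 2.47, 2.42 and 1.31 against count ratios of 1.11, 1.00 and 0.15, while Peg10 lies close to it.

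Most genes listed around IGF2 signalling were on in adult liver, although Igf2 itself stood at 0.329 and 0.184 TPM. Of the 14 genes of the IGF and insulin axis, 12 reached 1 TPM in both libraries, where 51.0% of protein-coding genes did. The binding proteins Igfbp4 and Igfbp2 stood at 669.96 ± 109 and 567 ± 169 TPM (SD, n = 2), and the growth hormone receptor Ghr at 377 ± 4.31 TPM. The insulin receptor Insr had 36.6 and 48.1 TPM, while Igf1r, the receptor through which IGF2 promotes growth, had 1.07 and 1.78.

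A longer list of 44 other imprinted genes, 42 of which matched, had 21 members at 1 TPM in both libraries, 1 in 1 library and 20 in neither. Among protein-coding genes 51.0% reached 1 TPM in both. The amino acid transporter Slc38a4 led the list with 106136 and 114432 counts, or 850 ± 147 TPM (SD, n = 2), above Gnas at 200.2 TPM. Cd81, a tetraspanin, followed at 355 ± 30.4 TPM and Tfpi2, a protease inhibitor, at 238 ± 13.4 TPM. Several genes of this list, such as Cd81 and Tfpi2, are known as imprinted mainly in the placenta.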

How the data were processed

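Total RNA-seq of adult C57BL/6J liver was analysed in 2 libraries that form 1 group. The members and lists were chosen with earlier results of these data known. Per the note deposited with each library, genes and transcripts were quantified against mm10 and GENCODE M4, without pooling; for the aligner, the quantifier and any use of strand, the method is not given in the sources used here. Per the file headers, each row holds an expected count, TPM, FPKM, the percent of a gene's TPM in each transcript, a posterior SD of the count and lengths in nucleotides. The deposited credibility bounds of TPM and FPKM, read as a signal, were not used for a result.

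Gene symbols and transcript starts came from GENCODE M21, which matched 42462 of 43346 gene identifiers. Deposited TPM was rescaled so that protein-coding genes sum to 1000000, because they held only 12.1% and 16.3% of deposited TPM. After rounding of expected counts to integers, edgeR 4.0.16 (TMM factors 0.950 and 1.05, common dispersion) and DESeq2 1.42.0 were run in R 4.3.3 with Python 3.11.15, numpy 2.4.6, pandas 2.3.3 and scipy 1.17.1. Log2 ratios used CPM plus 0.01, equal to 0.796 and 0.748 counts, which understates ratios of low genes, over genes with a mean count of 10 or more. Counting intervals are exact Clopper-Pearson intervals at 95%, conditional on the sum of both libraries, and a count of 0 was taken to allow 3. On simulated data a coefficient of variation of 0.2 came out as 0.197 over 15041 genes. In a separate draw with counting noise only, 200 of 200 simulated 4-fold changes passed 2-fold. That draw changed only genes with a mean count of 100 or more and held no spread between libraries. It therefore checks the calculation and not how well changes are found in these data. Peg10 and Plagl1 had mean counts of 71.5 and 97, below that limit. Transcript starts within 500 bases of the next were joined. Every listed imprinted gene is given; other lists are given by counts and their highest or defining genes, some of them named after their values were seen. Alternatives were other scalings, filters, pseudocounts, thresholds and units, and leaving out each library.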

Additional observations from a re-analysis of the deposited data

How the results depend on the processing

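With 1 group of 2 libraries, no setting could be tested, so values are compared by size alone. The number of imprinted genes at 1 TPM in both libraries, 20, fell to 7 on the TPM scale of all endogenous genes and to 6 at a threshold of 10 TPM; the other settings gave 15 to 27, including 19 without Kcnq1-207, a setting chosen after seeing the data, and each library alone 21 to 22. The share held by these genes, 0.0445%, was 0.00644% of endogenous TPM and 0.0628% of protein-coding expected counts, and 0.0406% to 0.0484% in each library alone. Genes over 2-fold apart numbered 5, and 3 with spike-in scaling, 2 with a pseudocount of 0.5 CPM, 8 without the low-count filter and 3 at a mean count of 100. The median log2 ratio of -0.041 became -0.055 with DESeq2 size factors, 0.24 with spike-in scaling, 0.56 by deposited TPM, -0.015 with the larger pseudocount, 0.14 without the filter, -0.068 at a mean count of 100 and -0.042 from posterior mean counts. The median level was 2.49 TPM, 0.359 on the endogenous scale, and 1.56 to 2.79 with a library left out. The coefficient of variation of 0.238 was 0.296 without the filter and 0.238 with DESeq2 size factors. Of the 27 single-gene ratios, spike-in scaling moved 15 and the deposited TPM ratio 21 outside the gene's own counting interval. These intervals cover counting error only and are narrower for genes with more counts. Both numbers therefore depend on read depth as well as on the size of the shift, and were not compared with the spread between libraries. No paired analysis was possible because both libraries belong to the same group. Genes under 10 counts are limited by depth.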

Other observations

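Among 12 genes of imprint maintenance, 6 reached 1 TPM in both libraries, where 51.0% of protein-coding genes did. Trim28, the corepressor that protects imprints in the early embryo, was highest at 49.0 ± 4.69 TPM (SD, n = 2), followed by Zfp445, a zinc finger protein that recruits it, at 20.4 ± 2.21 TPM and the insulator protein Ctcf at 13.7 ± 0.430 TPM. Zfp57, the other zinc finger protein with this role, had 21 and 29 counts. The maintenance methyltransferase Dnmt1 had 848 and 861 counts, while its partner Uhrf1 had 100 and 259. The proliferation genes Top2a, with 215 and 479 counts, and Mki67, with 217 and 488, were likewise higher in replicate 2.

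Of 12 fetal liver genes that are not imprinted, 2 reached 1 TPM in both libraries, Top2a and Afp, where 51.0% of protein-coding genes did. A further 2 reached it in only 1 library and 8 in neither. Spink1, the highest of the list by mean, had 46 and 7 counts, or 5.68 and 0.983 TPM. Mki67 stood at 0.576 and 1.47 TPM. Afp, the fetal counterpart of albumin, had 122 and 72 counts, and the embryonic globins Hbb-bh1 and Hba-x had 0 counts in both. All 5 repressors of fetal liver genes on the list were present. Zbtb20, a repressor of Afp, stood at 47.3 ± 0.371 TPM (SD, n = 2), Zhx3 at 35.8 ± 8.05 and Zhx1 at 22.5 ± 1.39. Zhx2, known for its effect on Afp and H19 in adult liver, had 3.74 ± 0.871 TPM.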
